A study of Homo sapiens with 6 samples.

Results

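Cohesin is a ring of SMC1A, SMC3 and RAD21 with a STAG subunit, and 10 genes of the ring, its loader and its release factors were followed here: SMC1A, SMC3, RAD21, STAG1, STAG2, NIPBL, MAU2, WAPL, PDS5A and PDS5B. They were chosen by name, with earlier results of these data known, and all 10 were among the 11354 genes listed in the transcript table of the study. The RNA came from CAL-62, a human line of anaplastic thyroid cancer, an undifferentiated tumour of the gland. RNA sequencing covered 3 cultures overexpressing FOXK2, a forkhead transcription factor, and 3 cultures carrying a vector. The study describes the 3 samples per group as biological replicates but not how they were kept apart, so p-values reflect only the spread among these samples. How FOXK2 was introduced, from which promoter it is driven, and whether each culture was a clone or a pool is not stated in the labels.

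In dividing cells cohesin holds sister chromatids together from S phase until separase cleaves RAD21 at anaphase. In interphase the same ring extrudes chromatin loops that are halted at CTCF. NIPBL and MAU2 load the ring and NIPBL drives its motor activity, while WAPL with PDS5A or PDS5B opens it again. STAG1 and STAG2 occupy the same place in alternative versions of the complex.

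Values are taken as FPKM (fragments per kilobase of transcript, scaled to the mapped fragments of the library), although the deposited table names no unit. They were summed over the listed transcripts of each gene. They are scaled to length, but a slope on length remained that differed by library. It was 0.21 log2 units per doubling in FOXK2 replicate 1 and -0.19 in vector replicate 3. Levels of different genes can therefore be set side by side only roughly. FOXK2 itself, the overexpressed gene, was at 30.8, 36.2 and 30.1 FPKM in the FOXK2 libraries, against 16.2, 12.5 and 18.8 FPKM in the vector libraries (log2 fold change 1.00, SE 0.17, limma adjusted p = 0.00525). Transgene and endogenous FOXK2 cannot be told apart in these values. The summed FPKM was 335151 to 363133 in the FOXK2 libraries and 370457 to 395782 in the vector libraries, and the number of reads behind it is unknown. Of the thyroid follicular cell markers PAX8, HHEX and, at a low level, FOXE1 were listed, while TG, TSHR, NKX2-1 and SLC5A5 were not among the listed genes. No endothelial marker of 4 was listed, and of 4 leukocyte markers CD68 was. Epithelial markers were listed for 4 of 5 genes and mesenchymal markers for 4 of 4. HHEX averaged 49.5 FPKM in FOXK2 cells and 20.0 FPKM in vector cells (log2 fold change 1.26, limma adjusted p = 0.000991), and the keratin KRT19 averaged 251.5 FPKM in FOXK2 cells and 620.9 FPKM in vector cells (-1.31, limma adjusted p = 0.000642). No other marker of these lists was called in these values, and FOXE1 was too low to be tested. With a correction for GC content and length, KRT8 (log2 fold change 0.50), KRT18 (0.66), VIM (0.38) and FN1 (-0.45) were called as well. Their limma adjusted p was 0.00236 to 0.0301. The part of the markers in the cohesin values was not tested. FOXK2 replicate 2 stood nearest to the vector libraries, with correlations across genes of 0.931 to 0.941, against 0.873 to 0.924 for the other FOXK2 libraries.

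Most cohesin genes were higher with FOXK2 overexpression. Of the 10 genes, 8 rose and none fell at a limma adjusted p under 0.05, where 17.6% of the 10302 genes tested rose and 18.7% fell. The 8 were SMC1A, SMC3, RAD21, STAG1, PDS5A, PDS5B, WAPL and NIPBL. STAG2 and MAU2 did not pass the threshold. With the libraries scaled to the same sum, which moved the median of all genes by 0.11, 21.2% of all genes rose and 14.7% fell, and the cohesin count was 8. The median log2 fold change of the 10 genes, on log2(FPKM + 1), was 1.16, beside 0.01 over all genes tested. Adding 1 understates the change of low genes. With 1 library left out, 4 to 9 of the genes were called in either direction, where 18.9% to 46.3% of all genes were. Without FOXK2 replicate 2, 8 rose and MAU2 was called lower, where 23.1% of all genes rose and 23.2% fell. The number that rose was 4 without FOXK2 replicate 3, where 8.25% of all genes rose, and 5 without vector replicate 3, where 8.72% rose. SMC1A, SMC3, RAD21 and PDS5B were called with each library left out in turn. The same 8 genes had every FOXK2 library above every vector library, an order that 25.7% of all genes showed. Levels were measured over whole cultures, so more RNA per cell and a larger share of cells at a stage that expresses these genes cannot be told apart.

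**Figure D1:**
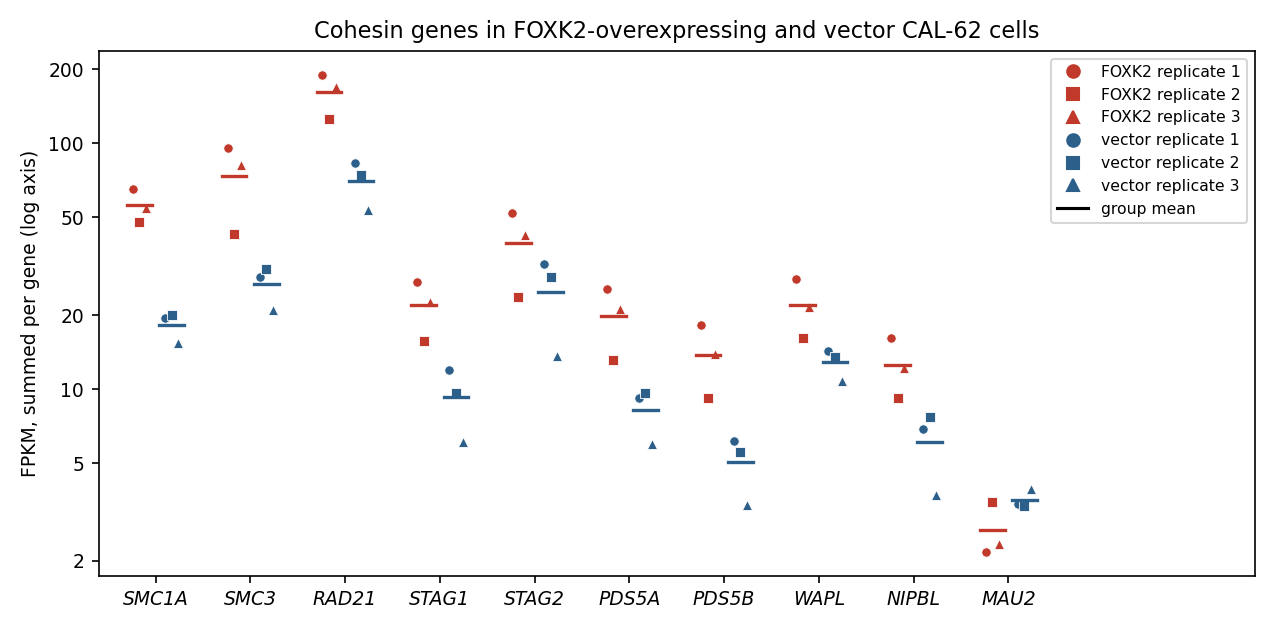
Summed FPKM (log axis) of the 10 cohesin genes in each FOXK2 library (red, left) and each vector library (blue, right), with marker shapes for the replicates and bars for the group means of 3 libraries. In 8 genes every red marker lies above every blue one, while STAG2 and MAU2 overlap.

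All 3 core ring subunits rose. SMC1A, an ATPase arm of the ring, had 65.3, 47.6 and 54.5 FPKM in the FOXK2 libraries, against 19.4, 20.0 and 15.4 FPKM in the vector libraries. The FOXK2 libraries lay far above the vector libraries, and the ratio of the group means was 3.06. The log2 fold change was 1.56 (SE 0.16, limma adjusted p = 0.000928). Part of it lay in a single short transcript.

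The table listed 4 transcripts of SMC1A. ENST00000322213, the long coding transcript, had 37.1, 23.5 and 27.0 FPKM in the FOXK2 libraries, against 17.1, 18.8 and 14.9 FPKM in the vector libraries, with no overlap but no call (a log2 difference of 0.73, limma adjusted p = 0.0817 over 21273 transcripts). ENST00000375340, another long transcript, had 5.29, 3.96 and 5.23 FPKM in the FOXK2 libraries, against 0.735, 0.0997 and 0.466 FPKM in the vector libraries (log2 fold change 2.04, SE 0.24, limma adjusted p = 0.014). ENST00000470241, a fragment of 838 bases, had 21.7, 19.0 and 21.4 FPKM in the FOXK2 libraries and was listed at 0 in all 3 vector libraries. Among 30893 transcripts it was the single one listed at 0 in every vector library with at least 10 FPKM in every FOXK2 library, and no transcript showed the opposite; this minimum was chosen after the values were seen. A listed 0 can be a failed estimate, so neither a fold nor a p-value is given.

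ENST00000470241 has 6 exons in GENCODE 29, which marks it as incomplete at both ends. It lacks the exon that is number 23 of 25 in ENST00000322213, a stretch of 70 bases at chrX:53381018-53381087 (GRCh38, minus strand). Dividing 70 by 3 leaves 1, so leaving the exon out shifts the reading frame in the C-terminal part of the protein, which in SMC proteins folds back into the ATPase head. The 2 sequences show what separates the transcripts, as read from the GENCODE transcripts. In the first the capitals mark the exon between flanks of 30 bases, and in the second they mark 10 bases on each side of the join.
ENST00000322213: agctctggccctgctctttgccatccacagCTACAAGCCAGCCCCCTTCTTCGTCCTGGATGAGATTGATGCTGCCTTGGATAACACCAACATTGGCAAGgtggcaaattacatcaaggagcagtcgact
ENST00000470241: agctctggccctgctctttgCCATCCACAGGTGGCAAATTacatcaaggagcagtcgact

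The share of the SMC1A sum in ENST00000322213 was 56.8%, 49.3% and 49.5% in the FOXK2 libraries and 88.2%, 94.0% and 97.0% in the vector libraries (two-sided exact permutation p = 0.1, the smallest that 3 against 3 libraries allows, and 0.4 adjusted over 8 genes). FPKM gives a short transcript as much weight as a long one. As FPKM times length, ENST00000470241 made up 4.19%, 5.58% and 5.37% of SMC1A in the FOXK2 libraries. Without this transcript SMC1A summed to 43.6, 28.6 and 33.1 FPKM in the FOXK2 libraries, against 19.4, 20.0 and 15.4 FPKM in the vector libraries, and it was still called (log2 fold change 0.89 ± 0.19 SE by limma, adjusted p = 0.0103). With transcripts weighted by length the log2 fold change was 1.00 (limma adjusted p = 0.00545).

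SMC3, the partner arm of SMC1A in the ring, had 95.8, 42.5 and 81.4 FPKM in the FOXK2 libraries, against 28.5, 30.9 and 20.9 FPKM in the vector libraries. FOXK2 replicate 2 lay much closer to the vector libraries than the other FOXK2 libraries did, without overlapping them. The log2 fold change of SMC3 was 1.36 (SE 0.30, limma adjusted p = 0.0126).

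RAD21, the kleisin that closes the ring and is cut by separase, was the most abundant of the 10 genes in each group. It had 190.1, 125 and 169.6 FPKM in the FOXK2 libraries, against 82.8, 74.5 and 53.4 FPKM in the vector libraries. All FOXK2 values exceeded all vector values, and the log2 fold change was 1.19 (SE 0.21, limma adjusted p = 0.00576). The mean of RAD21 was 162 ± 33.1 FPKM in FOXK2 cells and 70.2 ± 15.2 FPKM in vector cells (SD, n = 3 libraries each). SMC3 averaged 73.3 ± 27.6 FPKM in FOXK2 cells and 26.7 ± 5.21 FPKM in vector cells, and SMC1A 55.8 ± 8.91 FPKM in FOXK2 cells and 18.2 ± 2.52 FPKM in vector cells. SMC3 and SMC1A overlapped in the FOXK2 libraries and not in the vector libraries.

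Of the STAG paralogs among the 10 genes, STAG1 passed the test and STAG2 did not. STAG3 is given below with the genes that act on the ring. STAG1 had 27.3, 15.7 and 22.6 FPKM in the FOXK2 libraries, against 12.0, 9.68 and 6.10 FPKM in the vector libraries, with no overlap (1.17 ± 0.27 SE on the log2 scale, limma adjusted p = 0.0153). Without FOXK2 replicate 3 it was no longer called (1.13, limma adjusted p = 0.0514). STAG2, which belongs to the form of the ring most used in somatic cells, had 52.1, 23.6 and 42.3 FPKM in the FOXK2 libraries, against 32.4, 28.6 and 13.6 FPKM in the vector libraries. FOXK2 replicate 2 fell below vector replicates 1 and 2, and the difference did not pass (log2 fold change 0.65 ± 0.37 SE by limma, adjusted p = 0.199). The log2 ratio of STAG2 to STAG1 was 0.91, 0.56 and 0.87 in the FOXK2 libraries and 1.36, 1.47 and 1.05 in the vector libraries. All FOXK2 ratios lay below all vector ratios, a difference of -0.51 (two-sided exact permutation p = 0.1, the smallest that 3 against 3 libraries allows, and 0.2 adjusted over 4 ratios). With a correction for GC content and length the difference was -0.50, again without overlap. With only the most abundant transcript of both genes the ratio differed the other way (0.86), so the shift depends on which transcripts are counted. Those transcripts were nearly absent in some libraries. That of STAG1 held 0.142% of its gene in FOXK2 replicate 1 and 0.26% in vector replicate 1. That of STAG2 held 4.47% in vector replicate 3.

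All 3 releasing factors rose. PDS5A and PDS5B, HEAT-repeat proteins that bind RAD21 and take part in both release and protection of the ring, had similar fold changes. PDS5A had 25.5, 13.1 and 21.1 FPKM in the FOXK2 libraries, against 9.17, 9.62 and 5.95 FPKM in the vector libraries (log2 fold change 1.15, SE 0.27, limma adjusted p = 0.0155). Its groups did not overlap, but the call was lost without FOXK2 replicate 3 (limma adjusted p = 0.0538) or vector replicate 3 (0.0511). PDS5B had 18.2, 9.23 and 13.9 FPKM in the FOXK2 libraries, against 6.17, 5.56 and 3.36 FPKM in the vector libraries (log2 fold change 1.28, SE 0.28, limma adjusted p = 0.0121). It passed with each library left out. The log2 ratio of PDS5B to PDS5A overlapped between the groups, with a mean of -0.50 in FOXK2 and -0.62 in vector libraries (difference 0.13, two-sided exact permutation p = 0.2, adjusted p = 0.267).

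WAPL, the factor that opens the ring, had 28.0, 16.1 and 21.6 FPKM in the FOXK2 libraries, against 14.2, 13.5 and 10.8 FPKM in the vector libraries. No values overlapped, and the gap between FOXK2 replicate 2 and vector replicate 1 was the narrowest part of the comparison. Its log2 fold change was 0.70 (SE 0.21, limma adjusted p = 0.0358). The call did not hold without FOXK2 replicate 1 or 3 or without any vector replicate (limma adjusted p = 0.0609 to 0.113), and held without FOXK2 replicate 2.

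Of the 2 loader genes NIPBL rose, and MAU2 did not pass. NIPBL had 16.2, 9.16 and 12.2 FPKM in the FOXK2 libraries, against 6.91, 7.69 and 3.73 FPKM in the vector libraries (log2 fold change 0.94 ± 0.28 SE by limma, adjusted p = 0.0348). The groups did not overlap, yet the call was lost without FOXK2 replicate 1 (limma adjusted p = 0.105) or 3 (0.0876) and without vector replicate 1 (0.058) or 3 (0.0917). MAU2, the partner that binds the N-terminal end of NIPBL, was the least abundant of the 10 genes. It had 2.18, 3.46 and 2.35 FPKM in the FOXK2 libraries, against 3.41, 3.33 and 3.92 FPKM in the vector libraries. FOXK2 replicate 2 overlapped the vector range, and the difference did not pass (log2 fold change -0.33, SE 0.18, limma adjusted p = 0.18). Without FOXK2 replicate 2 MAU2 was called lower (-0.48, limma adjusted p = 0.042). The log2 ratio of NIPBL to MAU2 was 2.43, 1.19 and 1.97 in the FOXK2 libraries and 0.84, 1.00 and -0.06 in the vector libraries. These did not overlap (difference 1.27, two-sided exact permutation p = 0.1, adjusted p = 0.2). With a correction for GC content and length the ratio was 1.74, 1.20 and 1.56 in the FOXK2 libraries and 1.10, 1.27 and 0.51 in the vector libraries, so the groups overlapped (difference 0.54, exact permutation p = 0.2). The log2 ratio of SMC3 to SMC1A overlapped between the groups (difference -0.20, exact permutation p = 0.7, adjusted p = 0.7), and without FOXK2 replicate 2 the difference was 0.04. With the same correction the difference was -0.47, without overlap (exact permutation p = 0.1). The SMC1A sum in this ratio holds ENST00000470241, listed at 0 in every vector library. With only the most abundant transcript of both genes, uncorrected, the ratio differed the other way, so the shift depends on how the transcripts are summed.

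**Figure D2:**
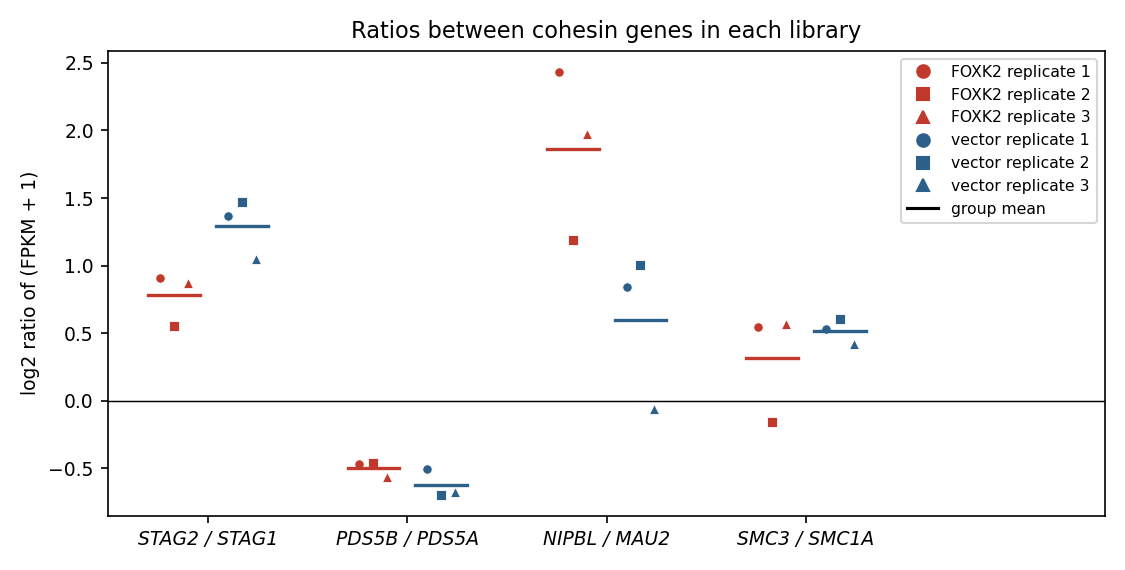
Log2 ratio of (FPKM + 1) between pairs of cohesin genes in each FOXK2 library (red, left) and vector library (blue, right), with bars for the group means of 3 libraries. Without a GC correction the groups do not overlap for STAG2 over STAG1 and for NIPBL over MAU2, and overlap for PDS5B over PDS5A and SMC3 over SMC1A.

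The genes also shared an order of libraries within each group. In 9 of 10 genes FOXK2 replicate 1 was the highest library of all, FOXK2 replicate 2 the lowest FOXK2 library and vector replicate 3 the lowest vector library. MAU2 was the exception in each case, with its lowest value in FOXK2 replicate 1 and its highest in vector replicate 3. Pearson correlations of log2 values over the 6 libraries were 0.71 to 0.99 in the 36 pairs without MAU2 (median 0.96), and -0.97 to -0.83 in the 9 pairs with it. These points share libraries and the group difference, so they are given as a description. Among 7203 other genes averaging 5 FPKM or more, those most like the mean profile of the 10 genes were PANK3, SBDS, USP25, CEP70 and SSX2IP, with Pearson r of 0.998 to 0.999 over 6 libraries. A correlation over 0.9 was reached by 1328 of them (18.4%).

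That order was also the order of a property of the libraries as a whole. Over all tested genes, the slope of log2 values on GC content was -0.38, -0.01 and -0.23 per 10 percentage points in FOXK2 replicates 1, 2 and 3, and 0.16, 0.16 and 0.30 in vector replicates 1, 2 and 3. The slope on length was 0.21, 0.02 and 0.11 per doubling in FOXK2 replicates 1, 2 and 3, and -0.08, -0.07 and -0.19 in vector replicates 1, 2 and 3. The mean deviation of the 10 genes from their own means was 0.80, 0.11 and 0.55 in the FOXK2 libraries and -0.28, -0.33 and -0.85 in the vector libraries, in log2 units. The transcripts of 8 of the genes had a GC content of 38.4% to 41.4%, with 48.5% in SMC1A and 57.3% in MAU2, the exception in library order. The median of all tested genes was 49.4%. In length the 10 genes ranged from 3462 bases in RAD21 to 8691 in NIPBL, with 4994 in MAU2, and the median of all tested genes was 2674. Across all tested genes, which are not independent replicates, the log2 fold change fell with GC content (Spearman rho -0.59).

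**Figure D3:**
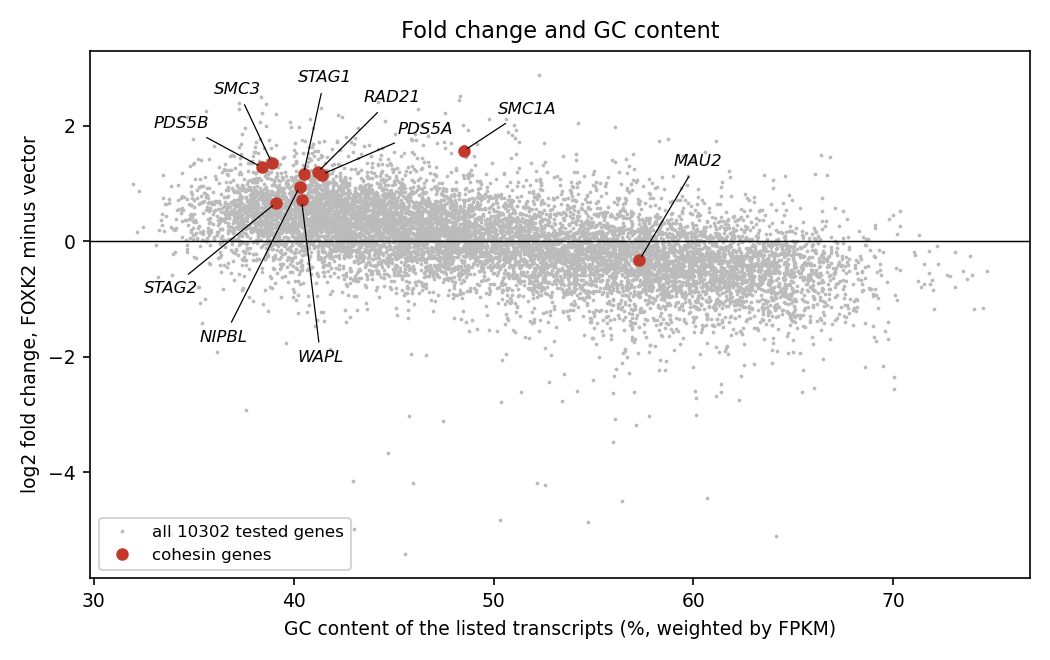
Log2 fold change (FOXK2 minus vector, on log2(FPKM + 1)) against the GC content of the listed transcripts in percent, for all 10302 tested genes (grey) and the 10 cohesin genes (red). The grey cloud slopes down from left to right; 8 cohesin genes lie between 38.4% and 41.4%, SMC1A lies in the upper edge of the cloud at 48.5%, and MAU2 lies within it at 57.3%.

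After a smooth dependence on GC content and length had been taken out of every library, 6 of the 10 genes rose and none fell, where 15.9% of all genes rose and 14.3% fell. The median log2 fold change of the 10 genes was then 0.66. The corrected value of SMC1A was 1.33 (SE 0.10, limma adjusted p = 0.000374), and 0.67 without ENST00000470241 (limma adjusted p = 0.00782). SMC3 (0.86), PDS5B (0.76), RAD21 (0.75), STAG1 (0.66) and PDS5A (0.65) were called, with limma adjusted p of 0.00451 to 0.0206. NIPBL (0.42, limma adjusted p = 0.087), WAPL (0.19, 0.182), STAG2 (0.16, 0.684) and MAU2 (-0.12, 0.543) were not. With a library also left out, 3 to 6 of the genes were called, where 10.3% to 14.9% of all genes rose. The groups still did not overlap in 8 of the 10 genes, as in 24.8% of all genes in the same direction. The mean deviation of the 10 genes was 0.41, 0.12 and 0.32 in the corrected FOXK2 libraries and -0.18, -0.20 and -0.47 in the corrected vector libraries, so FOXK2 replicate 2 and vector replicate 3 kept their places.

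**Figure D4:**
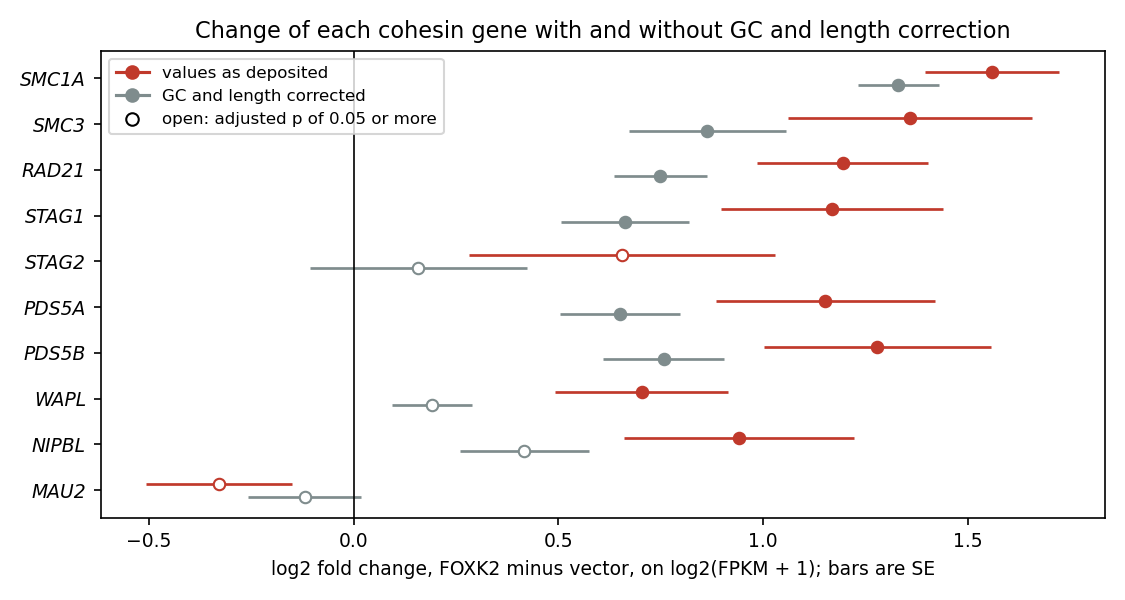
Log2 fold change (FOXK2 minus vector, on log2(FPKM + 1)) of each cohesin gene from the values as deposited (red) and after the GC and length correction (grey); bars are standard errors from 3 libraries per group, and open markers have a limma adjusted p of 0.05 or more. The corrected value is smaller in size for all 10 genes, and NIPBL and WAPL turn from filled to open.

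Other member transcripts bore on the gene sums as well. The table listed 35 transcripts of the 10 genes, 27 of them with a mean of at least 1 FPKM, and 5, among them ENST00000470241 with its listed 0 values, were called higher and none lower, where 3.03% of all transcripts tested were higher and 4.36% lower. With a library left out, 1 to 7 were called, where 0.823% to 10.2% of all transcripts were called in either direction: 7 without FOXK2 replicate 2, 2 without vector replicate 1 and 1 without each of the other libraries in turn. Besides the SMC1A transcripts these were ENST00000297338 and ENST00000517485 of RAD21 and ENST00000315596 of PDS5B. ENST00000297338, the main RAD21 transcript, had 171.1, 114.1 and 153.6 FPKM in the FOXK2 libraries, against 75.3, 66.7 and 47.5 FPKM in the vector libraries (log2 fold change 1.20, limma adjusted p = 0.0359). It held 90.0%, 91.0% and 90.6% of the RAD21 sum in the FOXK2 libraries and 90.9%, 89.5% and 89.0% in the vector libraries.

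NIPBL and the STAG genes were divided unevenly among transcripts. ENST00000448238 of NIPBL had 13.5, 8.04 and 9.48 FPKM in the FOXK2 libraries, against 4.99, 5.02 and 0.0389 FPKM in the vector libraries, and did not pass (1.73 on the log2 scale, limma adjusted p = 0.185). Vector replicate 3 had nearly all of its NIPBL in ENST00000282516 instead, at 3.69 FPKM. The share of STAG1 in ENST00000383202 was 0.142%, 39.2% and 67.5% in the FOXK2 libraries and 0.26%, 99.8% and 81.4% in the vector libraries. The share of STAG2 in ENST00000371144 was 61.3%, 27.1% and 62.4% in the FOXK2 libraries and 66.5%, 54.8% and 4.47% in the vector libraries. Replicates of 1 group thus differed widely. Over the 8 genes with several listed transcripts, the share in the most abundant one had exact permutation p of 0.1 to 1.0, or 0.4 to 1.0 adjusted. From the most abundant transcript alone STAG1 differed by 0.30 on the log2 scale (limma adjusted p = 0.882). By that measure 5 of the 10 genes were called, where 9.63% of all genes rose.

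Genes that act on the ring were followed through a list of 23, of which 20 were listed and tested. Of these 13 rose and none fell, with a median log2 fold change of 0.74, where 17.6% of all genes rose and 18.7% fell. After the GC and length correction 14 rose and none fell, where 15.9% of all genes rose and 14.3% fell. Shugoshins, which shield centromeric cohesin from removal, were among them. SGO2 had 23.5, 12.0 and 17.9 FPKM in the FOXK2 libraries, against 3.52, 3.56 and 2.41 FPKM in the vector libraries (log2 fold change 2.14, limma adjusted p = 0.00131), and SGO1 rose by 1.56 on the same scale (limma adjusted p = 0.00129). The mitotic kinases PLK1 (log2 fold change 1.43), AURKB (1.20) and HASPIN (0.96) and the cohesion establishment factor DSCC1 (0.95) rose too, with limma adjusted p of 0.00127 to 0.00339.

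Among the enzymes and direct partners of the ring, ESCO2, CDCA5, ESPL1, PTTG1 and CTCF rose, while ESCO1 and HDAC8 did not pass. ESCO2, the S phase acetyltransferase of SMC3, had 6.79, 4.10 and 5.74 FPKM in the FOXK2 libraries, against 2.31, 1.68 and 1.46 FPKM in the vector libraries (log2 fold change 1.21, limma adjusted p = 0.00531). Its relative ESCO1 overlapped between the groups, with 4.71, 2.51 and 4.35 FPKM in the FOXK2 libraries and 2.22, 2.58 and 1.16 FPKM in the vector libraries (0.70, limma adjusted p = 0.0699). CDCA5, or sororin, which counters WAPL, rose by 0.79 on the log2 scale (limma adjusted p = 0.0058), and by 1.02 after the correction. ESPL1, or separase, rose by 0.95 (limma adjusted p = 0.00791) and its inhibitor PTTG1, or securin, by 0.66, both on the log2 scale (limma adjusted p = 0.0045). HDAC8, the SMC3 deacetylase, had 19.7, 19.9 and 16.7 FPKM in the FOXK2 libraries and 19.6, 16.4 and 19.5 FPKM in the vector libraries, with no call (0.02, limma adjusted p = 0.914). CTCF had 27.7, 25.3 and 26.3 FPKM in the FOXK2 libraries, against 18.9, 19.1 and 18.0 FPKM in the vector libraries (0.48, limma adjusted p = 0.0181). Its call was lost without FOXK2 replicate 3 (limma adjusted p = 0.0683) and without any 1 of the vector replicates (0.0505 to 0.0655).

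The SMC5/6 complex, a related ring that acts in DNA repair, was followed with its relatives through 10 genes. Of these 6 rose and 1 fell, with a median log2 fold change of 0.73, beside 17.6% and 18.7% of all genes. After the correction 4 rose and 2 fell, beside 15.9% and 14.3% of all genes. Without FOXK2 replicate 1 or 3 the number called was 4. SMC6 had 50.3, 29.2 and 40.1 FPKM in the FOXK2 libraries, against 21.4, 18.7 and 7.63 FPKM in the vector libraries (log2 fold change 1.35, limma adjusted p = 0.0254). Its call was lost without FOXK2 replicate 1 (limma adjusted p = 0.0806) or 3 (0.0694). SMC5 (log2 fold change 1.23), SMCHD1 (1.38), an SMC-like protein of the inactive X chromosome, and SLF2 (0.86) and SLF1 (0.69), which recruit SMC5/6 to DNA damage, rose with limma adjusted p of 0.00695 to 0.0213. SLF1 was not called after the correction (0.16, limma adjusted p = 0.315) or when FOXK2 replicate 1 or 3 or vector replicate 2 or 3 was left out (0.0613 to 0.0728). NSMCE1, a RING-domain subunit, had 24.3, 25.9 and 24.2 FPKM in the FOXK2 libraries, against 50.5, 49.6 and 48.8 FPKM in the vector libraries (log2 fold change -0.97, limma adjusted p = 0.00122).

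Markers of cycling cells moved with the cohesin genes. Of 17 proliferation markers 14 rose and none fell, with a median log2 fold change of 1.50, beside 17.6% and 18.7% of all genes. After the correction 14 rose and none fell, with a median of 1.23, beside 15.9% and 14.3% of all genes. Their summed level was 1728 to 1781 FPKM in the FOXK2 libraries and 825 to 879.5 FPKM in the vector libraries. CCNB2 (log2 fold change 1.76), AURKA (1.75), CCNA2 (1.74), TPX2 (1.67), CCNB1 (1.50) and CDK1 (1.41) were those with the smallest p (limma adjusted p of 0.000112 to 0.000766). The rise was uneven across the list. The MCM genes and PCNA had log2 fold changes of 0.10 to 0.84, and the other markers 1.41 to 2.44. The markers not called were MCM2, MCM5 and MCM7. FOXK2 replicate 2, the lowest FOXK2 library for 9 of 10 cohesin genes, was also the lowest for 11 of the 17 markers, and vector replicate 3 was the lowest vector library for 9 of them. FOXK2 replicate 1, the highest library for 9 of 10 cohesin genes, was the highest for only 7 of the 17 markers. The markers thus shared the library order of the cohesin genes only in part. The part of these markers in the change of the cohesin genes was not tested.

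RefSeq promoter windows (GRCh38.p14, 250 bases before to 50 after each start) were present for 9 of the 10 genes, in 12 windows, and none was found for RAD21. The letters were searched on both strands. The forkhead letters GTAAACA were in a window of 1 of the 9 genes, STAG2, and in 4.19% of all 27305 genes with a window. ATAAACA was in the windows of none of the 9 genes and in 5.16% of all genes. CCAAT was in those of PDS5A, PDS5B, STAG1, STAG2 and WAPL, as in 39.7% of all genes. TTTGAA was in those of PDS5B and SMC3 (18.2% of all genes), and the E2F letters TTTCCCGC in those of SMC1A and STAG1 (1.98% of all genes). Printed here are the stretches of the STAG paralogs that hold a forkhead and an E2F match, in capitals, each on the strand of its gene; the capitals of STAG2 are the reverse complement of GTAAACA. They lie at chrX:123960310-123960371 (plus strand) and chr3:136752504-136752611 (minus strand). These matches are descriptions of the letters and not binding sites.
STAG2: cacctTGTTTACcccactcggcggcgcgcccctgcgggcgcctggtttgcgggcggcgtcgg
STAG1: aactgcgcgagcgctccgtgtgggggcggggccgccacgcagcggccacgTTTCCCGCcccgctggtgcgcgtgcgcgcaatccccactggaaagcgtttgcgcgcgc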

How the data were processed

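Total RNA was sequenced from 3 FOXK2 and 3 vector cultures, with a stranded kit that marks the second strand by dUTP, per the labels' protocols. The authors deposited 1 table of transcript values, used here as FPKM. Per the submitters' processing notes, cutadapt, HISAT2 2.1.0, StringTie and the build hg19 were used; the header names no unit. Tool settings, annotation release and use of strand in quantification are not stated there. The table holds no counts, so read depth is unknown. Each transcript averaged 0.5 FPKM or more in 1 group or the other, so lower ones were not analysed here.

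Of 31009 transcript IDs, 30893 matched GENCODE 29, and the rest held 0.211% of the summed FPKM. Values were summed per gene and tested as log2(FPKM + 1) with limma 3.58.1 (R 4.3.3, intensity trend) in 10302 genes averaging 1 FPKM or more, with two-sided Benjamini-Hochberg adjusted p under 0.05 over all genes. The script was tested on simulated data. The GC and length correction removed a spline (4 degrees of freedom each) per library. Ratios and shares had exact permutation tests (scipy 1.17.1). Sharing a replicate number did not pair the samples. Alternatives were other pseudocounts, filters, scalings, weights, a replicate block and each library left out. The length weighting, the corrected fits with a library left out and the fit without 1 SMC1A transcript were chosen after seeing the data.

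Named were the 10 genes, FOXK2, up to 6 genes per list by smallest p, the enzymes and substrates of the ring, and the 5 genes most like the mean profile. The further ring subunits, the MCM genes and PCNA were named to show what their lists hold. The members and lists were chosen with earlier results of these data known. An item withheld from this work is not reported here.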

Additional observations from a re-analysis of the deposited data

How the results depend on the processing

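Of 261 alternative fits of single cohesin genes, 216 kept direction and side of the threshold, 41 lost the call, 3 gained one and 1 turned the sign (STAG2 at -0.11 with the GC and length correction and without vector replicate 3, range -0.11 to 0.35 over the corrected fits with a library left out). Against 8 cohesin genes called, 5 were called from the most abundant transcript, 4 to 9 with a library left out and 3 to 6 when the correction was added. The 9 included MAU2, called lower. Of all genes 3741 were called, against 7116 with array weights (which stopped before convergence), 2124 with the correction and replicate block, 2143 from the most abundant transcript and 1944 to 4768 with a library left out. SMC5/6 genes numbered 7, against 4 with the correction and replicate block and 4 to 7 with a library left out. Member transcripts numbered 5, against 12 with array weights, 1 with the replicate block, 1 with the block and correction and 1 to 7 with a library left out; over all transcripts 1572 were called, against 3990 with array weights, 22 with the block, 20 with the block and correction and 175 to 2162 with a library left out. HDAC8 turned to -0.063 with array weights and -0.090 with the correction, with or without the block, and spanned -0.060 to 0.098 with a library left out. The ratio of STAG2 to STAG1 turned to 0.86 and that of SMC3 to SMC1A to 0.63 with the most abundant transcript. With a library left out the ratio of SMC3 to SMC1A spanned -0.32 to 0.04, the STAG2 share difference -10.3 to 20.7 and that of PDS5B -3.74 to 1.96 percentage points. The causes were not tested. Same-numbered libraries deviated together little (r = 0.13, -0.17 and -0.06 for numbers 1, 2 and 3); the replicate block left 8 cohesin genes and 2982 genes called, and CTCF lost its call (adjusted p = 0.0543 by limma). Scaling libraries to the same sum moved the median of all genes by 0.11. Unknown read depth limits the low values, such as those of MAU2.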
